A study of Mus musculus with 4 samples.

Results

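The 28 genes described here encode enzymes and regulators of cholesterol and fatty acid synthesis. They were chosen by name, with earlier results of these data known. All 28 were found among the 25437 gene names listed in any of the 4 count files. The sterol branch holds 20 of them. Of these, 17 are enzymes from acetoacetyl-CoA to cholesterol (Hmgcs1, Mvk, Pmvk, Mvd, Idi1, Fdps, Fdft1, Sqle, Lss, Cyp51, Tm7sf2, Sc4mol, Nsdhl, Hsd17b7, Ebp, Sc5d and Dhcr7) and 3 are regulators or carriers (Srebf2, Insig1 and Stard4). Sc4mol is an older name of Msmo1. The fatty acid branch holds Srebf1, Fasn, Acaca, Acly, Acss2, Scd1, Scd2 and Elovl6. The study profiled single cells of wild-type mouse embryos (strain B6C3F1/J) with the BD Rhapsody microwell system, in a series on embryonic diapause, the arrest of the blastocyst before implantation. The 4 libraries analysed here are EDG7.5 and EDG9.5, the Reactivated library (EDG9.5 embryos after 30 h of E2) and E5.5. For each of the first 3, some 200 to 250 blastocysts were flushed from the uterus and pooled, while 50 E5.5 embryos were taken out of their implantation sites; cells were freed with TrypLE. Values for the 4 libraries follow the order in which they are named here. An E4.5 stage named by the series was not analysed here.

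Cholesterol is built from acetyl-CoA through mevalonate, farnesyl diphosphate, squalene and lanosterol. The transcription factor SREBP2, the product of Srebf2, raises transcription of most genes of this route when sterols in the endoplasmic reticulum are scarce, and INSIG1 holds the SREBP precursors there when sterols are plentiful. SREBP1, from Srebf1, acts more on fatty acid synthesis, in which citrate gives acetyl-CoA (Acly), acetyl-CoA gives malonyl-CoA (Acaca), palmitate is assembled (Fasn), elongated (Elovl6) and desaturated (Scd1, Scd2). SREBPs bind promoters together with NF-Y, which reads the CCAAT box, and with Sp1, which reads GC boxes. In the early mouse embryo the endoderm lineage also makes lipoproteins that carry lipid to the other cells.

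Each stage is 1 library, so no test between stages can be made and no p-value is given. All intervals are 95% intervals that cover counting error of the unique molecular identifiers (UMIs) only, and differences between stages cannot be told apart from differences between libraries. Levels are counts (CPM, scaled to 1000000 UMIs) of the summed cells of a lineage, and are compared within a gene, since the counts are not scaled by transcript length. After filtering, 1658, 2451, 671 and 9263 cells were clustered library by library, without the 28 genes or other genes of these pathways. Clusters were named epiblast-like, endoderm-like or trophoblast-like from marker genes, and the 3 groups are called lineages below. Summed own markers lay at 6018 to 7353 CPM in epiblast, 11041 to 14163 CPM in endoderm and 5090 to 8124 CPM in trophoblast. Markers of decidual stroma and erythroid cells summed to at most 41.0 and 1.17 CPM in any lineage. The endothelium and immune lists reached 229.6 and 233 CPM, both in EDG7.5 epiblast. Most of this came from 1 gene of each list, Pecam1 at 226 CPM and Laptm5 at 231 CPM. The part of other cell types in the results was not tested. Clusters whose leading genes pointed to another list were set apart (15.8%, 8.81%, 16.1% and 0% of cells), and 0%, 12.6%, 1.19% and 4.77% of cells stayed unnamed. The median cell held 3520 to 5819 UMIs by lineage in the first 2 libraries, 11656 to 14169 in Reactivated, and in E5.5 8611 to 8743.5. Between 1 and 27 cell barcodes were shared by any 2 libraries.

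The regions before the start sites show what the sterol genes have in common in sequence. RefSeq windows of 300 bases (250 before and 50 after a start, build GRCm38.p6) were on hand for 22 of the 28 genes. The CCAAT box, searched on both strands (ATTGG on the other), was found in a window of 16 of 16 sterol genes and 4 of 6 fatty acid genes, against 41.1% of all 27025 genes with a window and 43.5% of genes with a mean of at least 20 CPM here. A gene with several windows was counted if any of them held the box. The GC box GGGCGG, on both strands, was found in 15 of 16 sterol and 3 of 6 fatty acid genes, against 73.7% of genes with at least 20 CPM. A sterol element of the type TCACNCCAC was found in Hmgcs1 alone (1.44% of all genes hold one), and TCACNTGA in 0 of the 22 (4.78% of all genes). The motifs were searched separately, and sites of different motifs that overlap would each be counted. Before the start sites of the sterol genes there were 31 CCAAT boxes at 12 to 237 bases (median 62), 20 of them within 100 bases. The 250 bases before the start are given 5′ to 3′ on the gene's own strand for 5 genes that the results turn on, with each CCAAT box in either orientation and the sterol element in capitals.
Hmgcs1 (chr13:119690101-119690350, plus strand): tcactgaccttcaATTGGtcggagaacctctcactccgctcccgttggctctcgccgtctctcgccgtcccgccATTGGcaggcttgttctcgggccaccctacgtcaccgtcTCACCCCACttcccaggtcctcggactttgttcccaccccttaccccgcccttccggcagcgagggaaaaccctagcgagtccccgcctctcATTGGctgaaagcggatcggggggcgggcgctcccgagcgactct
Sc4mol (chr8:64733579-64733828, minus strand): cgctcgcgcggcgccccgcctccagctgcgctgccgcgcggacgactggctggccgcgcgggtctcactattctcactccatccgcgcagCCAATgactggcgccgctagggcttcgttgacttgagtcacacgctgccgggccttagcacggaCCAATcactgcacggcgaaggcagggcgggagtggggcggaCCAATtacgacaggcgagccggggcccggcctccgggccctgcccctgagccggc
Ebp (chrX:8193513-8193762, minus strand): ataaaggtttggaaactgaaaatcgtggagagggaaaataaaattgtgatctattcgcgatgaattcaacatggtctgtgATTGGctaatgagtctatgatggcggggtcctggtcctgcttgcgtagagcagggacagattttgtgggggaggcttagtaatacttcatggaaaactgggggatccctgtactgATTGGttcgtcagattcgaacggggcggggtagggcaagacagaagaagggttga
Insig1 (chr5:28071162-28071411, plus strand): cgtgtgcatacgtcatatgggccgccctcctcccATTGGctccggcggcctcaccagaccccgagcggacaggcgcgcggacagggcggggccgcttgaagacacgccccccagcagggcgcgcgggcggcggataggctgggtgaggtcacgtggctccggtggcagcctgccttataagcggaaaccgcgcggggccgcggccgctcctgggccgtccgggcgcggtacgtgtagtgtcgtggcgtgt
Elovl6 (chr3:129532136-129532385, plus strand): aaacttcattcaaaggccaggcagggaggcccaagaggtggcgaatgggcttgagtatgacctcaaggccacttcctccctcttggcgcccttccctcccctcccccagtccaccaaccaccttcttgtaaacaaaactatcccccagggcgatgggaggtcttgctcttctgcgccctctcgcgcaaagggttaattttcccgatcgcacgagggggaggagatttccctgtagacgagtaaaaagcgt
Hmgcs1 and Sc4mol each hold 3 CCAAT boxes in this stretch, Ebp holds 2 and Insig1 holds 1, while these letters do not occur in the stretch of Elovl6. A match is a string of letters, and no binding was measured.

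Summed over the 17 sterol enzymes, the level was similar in both diapause libraries in epiblast and endoderm, and higher in all 3 lineages of the Reactivated library. In epiblast the sum was 676 CPM (646 to 707), 637 (606 to 669), 1402 (1357 to 1449) and 877 (865 to 889) over the 4 libraries. In endoderm it was 1039 (1004 to 1074), 1074 (1041 to 1108), 3613 (3545 to 3681) and 1450 (1436 to 1464) CPM. In trophoblast it was 424 (397 to 452), 278 (256 to 302), 1071 (1026 to 1118) and 1292 (1279 to 1306) CPM. Epiblast and endoderm were thus highest in Reactivated, and trophoblast was highest in E5.5. The 8 genes of the fatty acid branch did not follow this order in every lineage. Their sum in epiblast was 1262 CPM (1221 to 1303), 1246 (1203 to 1290), 1303 (1260 to 1348) and 1018 (1005 to 1031). In endoderm it was 1139 (1102 to 1176), 1138 (1104 to 1172), 2273 (2220 to 2328) and 1627 (1612 to 1643) CPM. In trophoblast it was 754 (718 to 791), 694 (659 to 731), 713 (676 to 752) and 1240 (1227 to 1253) CPM. Of the 3 lineages, only the endoderm had a sum of this branch in Reactivated whose interval lay above that of EDG9.5.

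**Figure D1:**
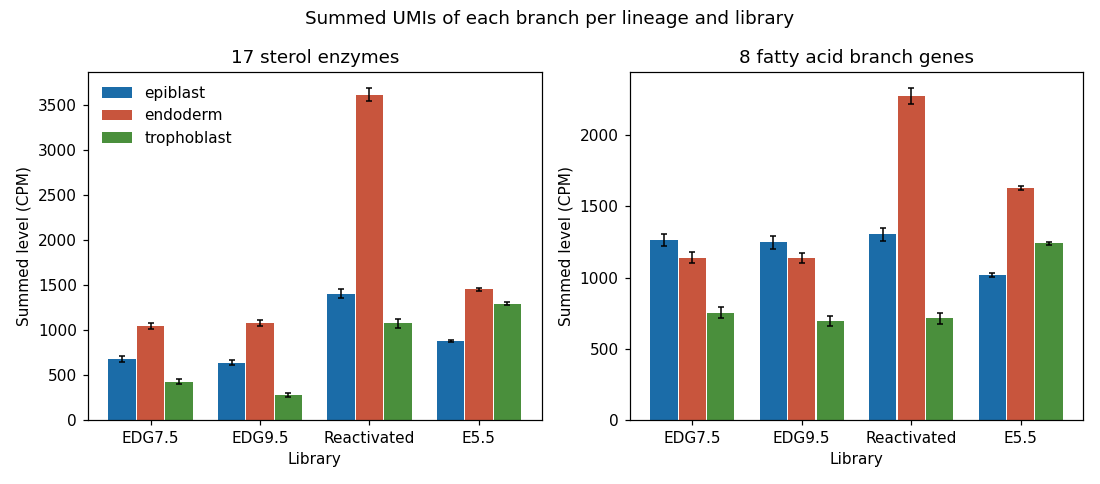
Summed level (CPM) of the 17 sterol enzymes (left) and the 8 fatty acid genes (right) in each library, with 1 bar per lineage and 95% Poisson intervals. The sterol sum of Reactivated endoderm, 3613 CPM, stands above every other bar on the left.

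The first comparison, EDG9.5 over EDG7.5, asks how these genes stand after 2 lengths of diapause. A member is counted as 2-fold higher or lower when the log2 ratio of its CPM, with 10 CPM added to both sides, is at least 1 or at most -1. The highest and lowest ratio of a branch or list are also those of this log2 ratio, while values given as times are plain ratios of CPM, so that a gene of few counts can have a larger plain ratio than the gene named. None of the 28 genes passed in any lineage sum, where 0.0323%, 0.167% and 0.067% of all measured genes were 2-fold higher (epiblast, endoderm, trophoblast) and 0.0242%, 0.0318% and 0.172% were 2-fold lower. The median log2 ratio of the sterol branch was -0.06 in epiblast, 0.01 in endoderm and -0.27 in trophoblast, beside medians of all genes of -0.02, -0.02 and 0.00. For the fatty acid branch it was 0.00, 0.00 and -0.05. In trophoblast 14 of the 20 sterol genes were lower in EDG9.5, and the count of those 2-fold lower there ran from 0 to 6 over the alternatives. It was 6 of 20 with clusters drawn at Leiden resolution 2 (Hmgcs1, Mvk, Sqle, Cyp51, Sc4mol and Srebf2, with a branch median of -0.56), 5 with 1 CPM added and 2 of 18 measured in cells under 10% mitochondrial UMIs. At resolution 2 the median of all genes was 0.00. Shares of all genes past 2-fold were not counted under these alternatives. Outside the lineage sums, set-apart EDG9.5 cluster 5 and unnamed cluster 4 were most like set-apart EDG7.5 cluster 6. Their sterol enzymes summed to 469 and 482 CPM against 935 CPM in that cluster. In these pairs 7 and 4 of 20 sterol genes were 2-fold lower, where 0.487% and 0.999% of all genes were. The endoderm median rested on 1 cluster of EDG9.5, cluster 8, described below: it was -0.27 without that cluster. It was 1.05 with the cluster alone, where 11 of 20 sterol genes were 2-fold higher and 2.77% of all genes were (2.6% were lower). Endoderm clusters 2 and 3 stood at 0.71 and 0.75 times the sterol enzyme sum of their most similar EDG7.5 cluster. Cluster 8 stood higher than its own, at 2502 against 1250.5 CPM. Endoderm cluster 1 was most like an epiblast cluster (1.43 times, 0.90 to 2.36). Epiblast clusters 0 and 7 stood at 0.94 (0.88 to 1.02) and 0.87 times (0.73 to 1.02) their most similar cluster.

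Srebf2, which encodes SREBP2, was the sterol gene with the lowest ratio in trophoblast with 10 CPM added: 116 CPM in EDG7.5 and 56.9 CPM in EDG9.5, which is 2.04 times lower (1.64 to 2.56). Srebf1 was lower there by a like amount, from 93.0 to 45.9 CPM, or 2.03 times (1.58 to 2.61). Sc4mol, a C4 sterol methyl oxidase, stood at 67.4 and 31.1 CPM, and Sqle, the squalene epoxidase, at 37.6 and 15.8 CPM. All 4 genes were lower but stayed within the 2-fold bound with 10 CPM added. Nsdhl, a dehydrogenase of the C4 demethylation steps, had the highest sterol ratio in endoderm, with 18.7 and 35.4 CPM (1.89 times, 1.39 to 2.60), and in trophoblast, with 13.7 and 22 CPM (1.6 times, 0.989 to 2.63). Within EDG9.5 endoderm, Nsdhl was 98.6 CPM in cluster 8 and 20.6 CPM in the other clusters. Srebf2 was the lowest in endoderm, at 354 and 273 CPM (1.29 times lower, 1.19 to 1.41). In epiblast the range ran from Fdps, the farnesyl diphosphate synthase, at 29.8 and 17.1 CPM (1.74 times lower, 1.19 to 2.57) to Sc5d, the lathosterol oxidase, at 23.5 and 29.8 CPM, an interval (0.902 to 1.79 times) that holds 1. Acaca in trophoblast, with the highest ratio of the fatty acid branch, rested on 2 and 12 UMIs. Scd1, the stearoyl-CoA desaturase, was higher in EDG9.5 endoderm, at 120.1 and 180.0 CPM (1.5 times, 1.32 to 1.70), and Fasn was lowest there, at 93.0 and 75.9 CPM. Scd1 too was uneven within EDG9.5 endoderm, with 379 CPM in cluster 8 and 133 CPM in the other clusters. In epiblast the fatty acid genes ran from Acly (98.0 and 81.5 CPM) to Scd1 (95.9 and 112 CPM).

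The second comparison, Reactivated over EDG9.5, covers the 30 h of E2. In epiblast 9 of 20 sterol genes were 2-fold higher and 0 lower, where 7.3% of all measured genes were 2-fold higher and 16.5% lower. In endoderm 14 were higher and 0 lower (6.12% and 11.6% of all genes), and in trophoblast 10 were higher and 2 lower (12.6% and 15% of all genes). The branch medians were 0.97, 1.36 and 0.95, beside medians of all genes of -0.23, -0.18 and -0.08. In the fatty acid branch 3 genes were 2-fold higher and 0 lower in endoderm, while epiblast and trophoblast each had 1 gene higher and 1 lower, with medians of 0.88 in endoderm, 0.02 in epiblast and 0.28 in trophoblast. Scaling by TMM factors moved the medians of all genes to -0.04, 0.02 and -0.04. The Reactivated cells were also deeper, at 11656 to 14169 UMIs in the median cell of a lineage against 3520 to 4179.5 in EDG9.5. With every cell thinned to 1000 UMIs, 44 of 56 calls, over the members, comparisons and lineages that kept a value, were still past 2-fold.

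**Figure D2:**
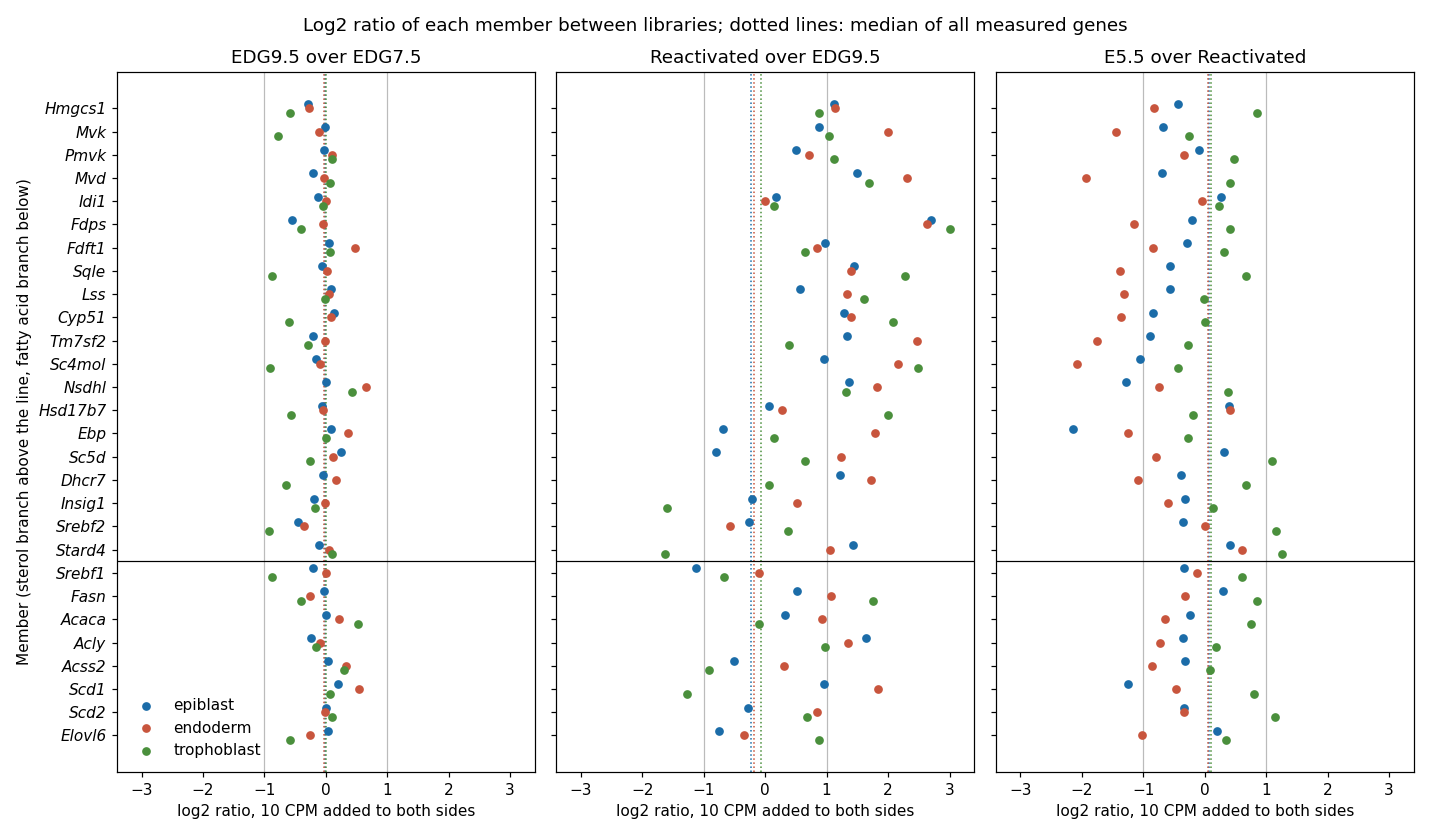
Log2 ratio, with 10 CPM added, of each of the 28 genes in the 3 comparisons between consecutive libraries, with 1 point per lineage, vertical lines at -1 and 1 and dotted lines at the median of all measured genes. In the middle panel most sterol genes, above the horizontal line, lie to the right of 0, with Fdps at 2.7, 2.63 and 3.01 in epiblast, endoderm and trophoblast.

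The lineage sums joined unlike clusters, and in endoderm and trophoblast the differences depended on which clusters were compared. In EDG9.5 the endoderm held a cluster of 98 of its 918 cells led by Spink3, Cubn and S100g (cluster 8), in which the sterol enzymes already summed to 2502 CPM, against 738 CPM in the other endoderm clusters. The cluster of EDG9.5 whose profile was most like each Reactivated endoderm cluster was this one (Pearson r across 6979 genes 0.66 and 0.60, a description only). Set against cluster 8 alone, Reactivated endoderm had a sterol median of 0.35, with 3 of 20 genes 2-fold higher where 3.93% of all genes were (8.22% were lower), and 0 of 8 fatty acid genes. With EDG9.5 endoderm taken without cluster 8, 17 of the 17 members called in this lineage passed again. Cluster 8 was above the other endoderm clusters for 20 of 20 sterol and 6 of 8 fatty acid genes. Leaving it out therefore raises most of these ratios, so this count is no check on the calls. In Reactivated trophoblast, cluster 6 (33 of 155 cells) was the one most like the EDG9.5 trophoblast, and its sterol enzymes summed to 284 CPM (230 to 346) against 278 there. With cluster 6 alone as the trophoblast of Reactivated the sterol median was -0.31, with 1 of 17 measured genes 2-fold higher and 3 lower, where 9.28% and 15.8% of all genes were. The other Reactivated trophoblast clusters, 0 and 2, were most like EDG9.5 cluster 5, a cluster that had been set apart. Their sterol enzymes summed to 797 and 1668 CPM against 469 CPM in that cluster. In epiblast, Reactivated clusters 1 and 4 stood 2.54 (2.21 to 2.92) and 2.42 times (2.11 to 2.80) above their most similar EDG9.5 cluster, with sterol medians of 1.24 and 1.29. Reactivated epiblast cluster 5, of 9 cells, stood at 1.06 times (0.73 to 1.49) its own. Its sterol median was -0.77, beside -0.23 for all genes.

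Among the enzymes of the mevalonate steps, Fdps had the highest ratio of the sterol branch in every lineage with 10 CPM added, although the plain endoderm ratios of Mvd and Tm7sf2 were larger. Its level over the 4 libraries was 29.8, 17.1, 165 and 142 CPM in epiblast, 34.4, 33.0, 256 and 109 CPM in endoderm, and 12.8, 7.18, 128 and 173 CPM in trophoblast. Both diapause libraries were low and the other two high in each lineage. Reactivated stood 9.68 times (7.07 to 13.6), 7.74 times (6.40 to 9.43) and 17.8 times (10.6 to 32.4) above EDG9.5. Fdps lies on chromosome 3 (89093588 to 89101967, GRCm38). It had 93.0 CPM in EDG9.5 cluster 8, and Fdps, Mvd and Tm7sf2 were the 3 genes that Reactivated endoderm held 2-fold above that cluster. In Reactivated trophoblast cluster 6 Fdps was 17.7 CPM. Mvd, which makes isopentenyl diphosphate, had 4.77 CPM in EDG9.5 epiblast and 31.6 CPM in Reactivated epiblast (6.63 times, 3.59 to 13.4), 13.2 and 104.9 CPM in endoderm (7.93 times, 5.87 to 10.9), and 3.35 and 32.9 CPM in trophoblast (9.83 times, 4.51 to 25.4). Mvk, the mevalonate kinase, was higher most in endoderm, at 18.2 and 103 CPM (5.62 times, 4.32 to 7.41). Hmgcs1, which makes HMG-CoA and carries the sterol element shown above, was 112 and 254 CPM in epiblast, 138 and 315 CPM in endoderm and 42.1 and 85.4 CPM in trophoblast, between 2.03 and 2.28 times higher. Pmvk, the phosphomevalonate kinase, was 2-fold higher in trophoblast, at 6.70 and 26.2 CPM. Idi1, the isopentenyl diphosphate isomerase, stayed between 1.99 and 6.26 CPM in all 12 sums.

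The enzymes that turn farnesyl diphosphate into lanosterol were also higher in Reactivated. Sqle was 88.6 and 259.9 CPM in EDG9.5 and Reactivated epiblast, 113 and 313 CPM in endoderm, and 15.8 and 115 CPM in trophoblast. These are ratios of 2.93 (2.52 to 3.43), 2.78 (2.48 to 3.12) and 7.27 (5.03 to 10.8). Lss, the lanosterol synthase, passed 2-fold in endoderm, at 53.1 and 148 CPM, and in trophoblast, at 14.4 and 64.3 CPM. Fdft1, the squalene synthase, had log2 ratios of 0.98, 0.84 and 0.65 and stayed below the bound. In Reactivated trophoblast cluster 6, Sqle was 41.4 CPM and Lss 11.8 CPM, so that Lss was not above its EDG9.5 level there.

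Beyond lanosterol, the endoderm showed the broadest difference. Sc4mol was 159, 149, 697 and 157 CPM in the endoderm of the 4 libraries, so that Reactivated stood 4.69 times (4.27 to 5.15) above EDG9.5 and the other libraries lay between 149 and 159 CPM. In trophoblast it was 67.4, 31.1, 219 and 159.5 CPM, 7.05 times (5.42 to 9.30) higher in Reactivated than in EDG9.5, and in epiblast 79.8, 69.9, 146 and 64.7 CPM. Within EDG9.5, cluster 8 had 351 CPM of Sc4mol, and within Reactivated trophoblast the clusters 0, 2 and 6 had 160, 361 and 17.7 CPM. Tm7sf2, a C14 sterol reductase, was 14.8 and 127 CPM in EDG9.5 and Reactivated endoderm (8.58 times, 6.47 to 11.6) but 7.18 and 12.3 CPM in trophoblast, an interval (0.866 to 3.53 times) that holds 1. Cyp51, the lanosterol demethylase, was 165 and 451 CPM in endoderm, yet EDG9.5 cluster 8 had 467 CPM, slightly above the Reactivated level. Hsd17b7, the 3-ketosteroid reductase, behaved otherwise: it was 62.4 and 77.4 CPM in endoderm and 19.1 and 20.3 CPM in epiblast, but 6.70 and 57.1 CPM in trophoblast (8.52 times, 4.87 to 16.1). It was also the sterol gene that passed 2-fold in trophoblast cluster 6 alone, at 65.0 CPM.

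Ebp, Sc5d and Dhcr7, which act late in the pathway, differed between lineages. Ebp, the sterol isomerase, was 124, 132, 78.1 and 9.84 CPM in the epiblast of the 4 libraries, and 99.5, 131, 472 and 192 CPM in endoderm. The epiblast level of Ebp was thus 1.69 times lower (1.41 to 2.02) in Reactivated than in EDG9.5, and the endoderm level 3.62 times higher (3.26 to 4.02). In trophoblast it stayed between 42.0 and 53.0 CPM. Sc5d was the sterol gene with the lowest ratio in epiblast, at 29.8 and 12.9 CPM (2.31 times lower, 1.52 to 3.60), while in endoderm it was 58.7 and 151 CPM, 2.57 times higher (2.18 to 3.03). Dhcr7, the last reductase, was 37.0 and 145 CPM in endoderm, 11.5 and 40.2 CPM in epiblast, but 35.4 and 37.6 CPM in trophoblast. Nsdhl was 2-fold higher in all 3 lineages, by 3.19 (2.40 to 4.29), 4.22 (3.47 to 5.16) and 3.18 times (2.26 to 4.54).

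The regulators and the carrier had other patterns than the enzymes. Srebf2 was highest in EDG7.5 and lower in each later library in epiblast, at 246, 177, 145 and 111 CPM, and was 354, 273, 179 and 179 CPM in endoderm, where it had the lowest ratio of the sterol branch in Reactivated over EDG9.5 (1.52 times lower, 1.37 to 1.69). In trophoblast it was 116, 56.9, 76.6 and 184 CPM. Insig1 was 307, 271, 82.3 and 91.4 CPM in trophoblast, 3.30 times lower (2.76 to 3.95) in Reactivated than in EDG9.5, but 233, 230.2, 335 and 218 CPM in endoderm, where it was 1.46 times higher (1.33 to 1.6). In epiblast it was 190.1, 165, 139.7 and 110 CPM. Stard4, a cytosolic sterol carrier, was lower in Reactivated trophoblast too, at 122 and 32.9 CPM (3.72 times, 2.82 to 4.97), and higher in epiblast (6.76 and 35.1 CPM, 5.20 times, 3.07 to 9.31) and endoderm (102 and 222 CPM, 2.18 times, 1.92 to 2.48). Against EDG9.5 cluster 8, which had 258 CPM of Stard4, the endoderm ratio turned below 1. In Reactivated trophoblast clusters 0, 2 and 6 Insig1 was 44.1, 106 and 115 CPM and Stard4 44.1, 27.1 and 20.7 CPM. All lay below the EDG9.5 trophoblast, at 271 and 122 CPM. Clusters 0 and 2 were most like the set-apart EDG9.5 cluster 5, at 148 (129 to 168) and 56.3 CPM (45.1 to 69.5). Beside it, Insig1 in cluster 0 and Stard4 in cluster 2 were lower, with upper bounds of 61.3 and 41.1 CPM. The intervals of Insig1 in cluster 2 (84.8 to 131) and Stard4 in cluster 0 (30.7 to 61.3) overlapped those of cluster 5. Against cluster 5, 2 of 19 sterol genes were 2-fold lower in cluster 0 and 0 of 20 in cluster 2.

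Of the fatty acid genes, Acly, the citrate lyase, differed most evenly. It was 81.5 and 274 CPM in EDG9.5 and Reactivated epiblast (3.36 times, 2.87 to 3.94), 119 and 318 CPM in endoderm (2.67 times, 2.38 to 2.99) and 80.4 and 168 CPM in trophoblast (2.09 times, 1.73 to 2.54). Fasn, the fatty acid synthase, was 93.0, 75.9, 170.0 and 134 CPM in the endoderm of the 4 libraries and 12.8, 7.18, 47.8 and 94.9 CPM in trophoblast, where it had the highest ratio of this branch (6.67 times, 3.84 to 12.4). Scd1 differed in opposite directions: it was 120.1, 180.0, 669 and 482 CPM in endoderm, 3.72 times higher (3.41 to 4.06) in Reactivated than in EDG9.5, and 337, 352, 139 and 251 CPM in trophoblast, 2.53 times lower (2.20 to 2.92). Reactivated trophoblast clusters 0, 2 and 6 had 118, 132 and 204 CPM of Scd1, all below the EDG9.5 trophoblast. The set-apart EDG9.5 cluster 5 had 114 CPM (97.8 to 132), which lies within the intervals of clusters 0 (95.6 to 145) and 2 (108 to 159) and below that of cluster 6 (159 to 258). Scd2 is a close relative of Scd1 and its neighbour on chromosome 19 (44293676 to 44306864, and 44394450 to 44407709 for Scd1). Scd2 was 464 and 837 CPM in endoderm, 641 and 524 CPM in epiblast, while in trophoblast it was 136 and 223 CPM. Reads that match both genes cannot be assigned with certainty. Srebf1 was 120.4 and 49.6 CPM in epiblast (2.43 times lower, 1.97 to 3.01) and 76.4 and 70.1 CPM in endoderm. Elovl6 had the lowest ratio of the branch in endoderm, at 190.3 and 148 CPM (1.29 times lower, 1.14 to 1.45), and was 51.2 and 102 CPM in trophoblast. Acaca, the acetyl-CoA carboxylase, was 14 and 35.7 CPM in endoderm. Acss2, which makes acetyl-CoA from acetate, was 15.8 and 3.60 CPM in trophoblast and at most 25.1 CPM in any sum.

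**Figure D3:**
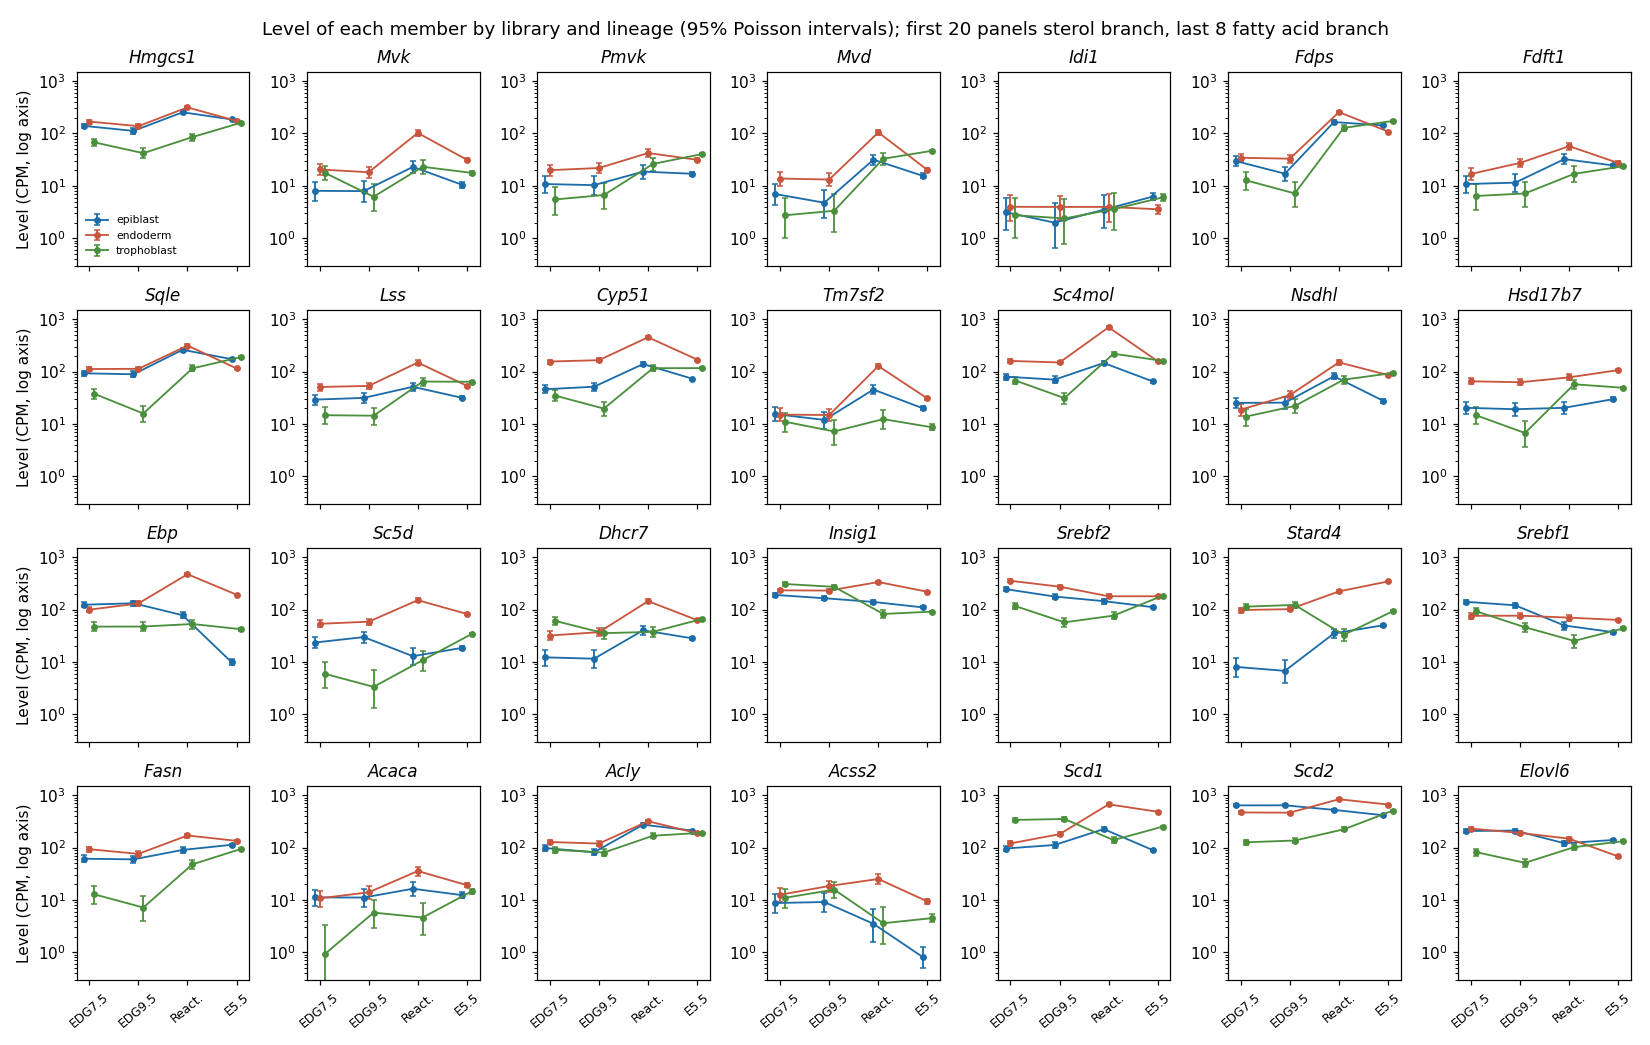
Level of each gene (CPM, log axis) in the 4 libraries, with 1 line per lineage and 95% Poisson intervals; the first 20 panels are the sterol branch and the last 8 the fatty acid branch. Sc4mol in endoderm has its highest point, 697 CPM, in Reactivated, while Insig1 in trophoblast goes from 271 CPM in EDG9.5 to 82.3 CPM.

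The third comparison, E5.5 over Reactivated, sets a post-implantation embryo beside the reactivated blastocyst and shares the Reactivated library with the second. In endoderm 10 of 20 sterol genes were 2-fold lower and 0 higher, where 2.3% of all genes were lower and 3% higher. In epiblast 3 were lower and 0 higher (4.47% and 3.1% of all genes), and in trophoblast 0 were lower and 3 higher (3.1% and 5.33%). The sterol medians were -0.41 in epiblast, -0.97 in endoderm and 0.35 in trophoblast, beside 0.07, 0.05 and 0.10 for all genes. Of the fatty acid genes, 8 of 8 were lower in endoderm and 8 of 8 higher in trophoblast, with 1 past 2-fold in each, and the medians were -0.56 and 0.68. The smallest of these differences were log2 ratios of -0.13 in endoderm and 0.09 in trophoblast, the latter near the median of all genes. Shares of all genes merely lower or higher were not counted. In epiblast 6 of the 8 were lower, with a median of -0.33 and 1 past 2-fold.

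Sc4mol had the lowest endoderm ratio with 10 CPM added and was 4.44 times lower (4.21 to 4.68) in E5.5. By the plain ratio Mvd was 5.21 times lower there, at 104.9 and 20.1 CPM, and Tm7sf2 4.15 times, at 127 and 30.6 CPM. Mvk, Lss, Sqle, Cyp51, Ebp, Fdps and Dhcr7 were between 2.30 and 3.26 times lower. Stard4 went the other way and had the highest ratio of the sterol branch in all 3 lineages with 10 CPM added: 35.1 and 50.1 CPM in epiblast (1.43 times, 1.15 to 1.79), 222 and 344 CPM in endoderm (1.55 times, 1.43 to 1.68) and 32.9 and 93.1 CPM in trophoblast (2.83 times, 2.21 to 3.68). In epiblast the lowest was Ebp, at 78.1 and 9.84 CPM (7.94 times lower, 6.53 to 9.64), and Nsdhl and Sc4mol were 2.94 and 2.25 times lower. In trophoblast Srebf2 (2.40 times, 2.04 to 2.84) and Sc5d (3.17 times, 2.06 to 5.14) were 2-fold higher beside Stard4, and Sc4mol was lowest with 10 CPM added, at 219 and 159.5 CPM. Scd1 was the fatty acid gene with the lowest epiblast ratio, at 226 and 89.5 CPM (2.52 times lower, 2.30 to 2.77), and Fasn the highest, at 90.1 and 113 CPM. In endoderm Elovl6 was 148 and 67.7 CPM (2.19 times lower, 1.97 to 2.42), and Srebf1 had the smallest difference, at 70.1 and 63.3 CPM. With 10 CPM added Scd2 was the highest in trophoblast, at 223 and 507 CPM (2.27 times, 2.06 to 2.51), and Acss2 the least so, at 3.60 and 4.51 CPM. The clusters differed here as well. E5.5 trophoblast clusters 2 and 3 stood at 0.67 and 1.13 times the sterol enzyme sum of their most similar Reactivated cluster, and against Reactivated cluster 6 alone 14 of 20 sterol genes were 2-fold higher, where 14.3% of all genes were (7.22% were lower).

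The order of the lineages within a library was then compared. The sterol genes were highest in endoderm in 14, 17, 20 and 9 of 20 cases over the 4 libraries, where endoderm was the highest for 36.1%, 35.2%, 35.4% and 31.4% of all genes. The fatty acid genes were highest there in 4, 4, 8 and 6 of 8 cases. Over the alternatives the sterol counts ran from 11 to 15, 12 to 20, 18 to 20 and 9 to 13. The fatty acid counts ran from 2 to 5, 2 to 6 and 7 to 8, and stayed at 6 in E5.5. Epiblast was the highest for 3, 1, 0 and 2 of the 20 sterol genes (41.9%, 43%, 38.8% and 41.2% of all genes), and trophoblast for 3, 2, 0 and 9 (22%, 21.9%, 25.8% and 27.4%). Cyp51, Fdft1, Hsd17b7, Mvk and Sc5d, and of the fatty acid genes Fasn and Acss2, were highest in endoderm in all 4 libraries. The endoderm over trophoblast ratio of Acss2 had an interval that held 1 in EDG7.5 (0.675 to 1.98) and EDG9.5 (0.764 to 1.83). So did that of Mvk in EDG7.5 (0.764 to 1.75). The endoderm over epiblast interval of Fdft1 held 1 in EDG7.5 (0.985 to 2.50) and E5.5 (0.997 to 1.24). Without cluster 8, EDG9.5 endoderm had 15.3 CPM of Acss2 against 15.8 CPM in trophoblast. Insig1, Stard4 and Scd1 were highest in trophoblast in both diapause libraries and in endoderm in the other two. For Stard4 in EDG7.5 the endoderm over trophoblast interval held 1 (0.728 to 1.02). In E5.5 it also held 1 for Sc4mol (0.943 to 1.03), Srebf2 (0.938 to 1.01) and Dhcr7 (0.889 to 1.02), counted as highest in trophoblast. The endoderm level of Ebp was 0.81 and 0.99 times its epiblast level in EDG7.5 and EDG9.5, and 6.05 and 19.5 times in Reactivated and E5.5. For Idi1, the counting intervals of the 3 lineages overlapped in EDG7.5, EDG9.5 and Reactivated.

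Single clusters showed how uneven the branches were inside a lineage. In EDG9.5, cluster 8 had 13 of 20 sterol genes and 2 of 8 fatty acid genes 2-fold above the other endoderm clusters, where 4.19% of all genes were (3.34% were lower), with medians of 1.49 and 0.73 beside -0.09 for all genes. Mvd had 44.4 and 5.88 CPM there (7.56 times, 4.12 to 14.3), Cyp51 467 and 93.7 CPM (4.98 times, 4.24 to 5.85) and Stard4 258 and 65.0 CPM (3.97 times, 3.24 to 4.88). Srebf2 was nearly level, at 307 and 265 CPM, and Elovl6 was 165 and 196 CPM. The cells of cluster 8 were deeper, with a median of 6739 UMIs. In EDG7.5 the endoderm clusters lay between 851 and 1250.5 CPM for the sterol enzyme sum, and none reached the level of EDG9.5 cluster 8. The set-apart Reactivated cluster 7, led by Col3a1, Lamc1 and Lama1, had 2709 CPM. In E5.5 the endoderm clusters spread from 642 CPM (cluster 5) to 1954 CPM (cluster 8), and the trophoblast clusters from 967 CPM (cluster 4) to 1889 CPM (cluster 3). E5.5 endoderm cluster 5 paired this low sum with 406 CPM of Insig1 and 849 CPM of Scd2, each the highest of the 10 clusters of that library, and with 38.6 CPM of Sc4mol, the lowest. Stard4 was highest in cluster 6, at 455 CPM.

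**Figure D4:**
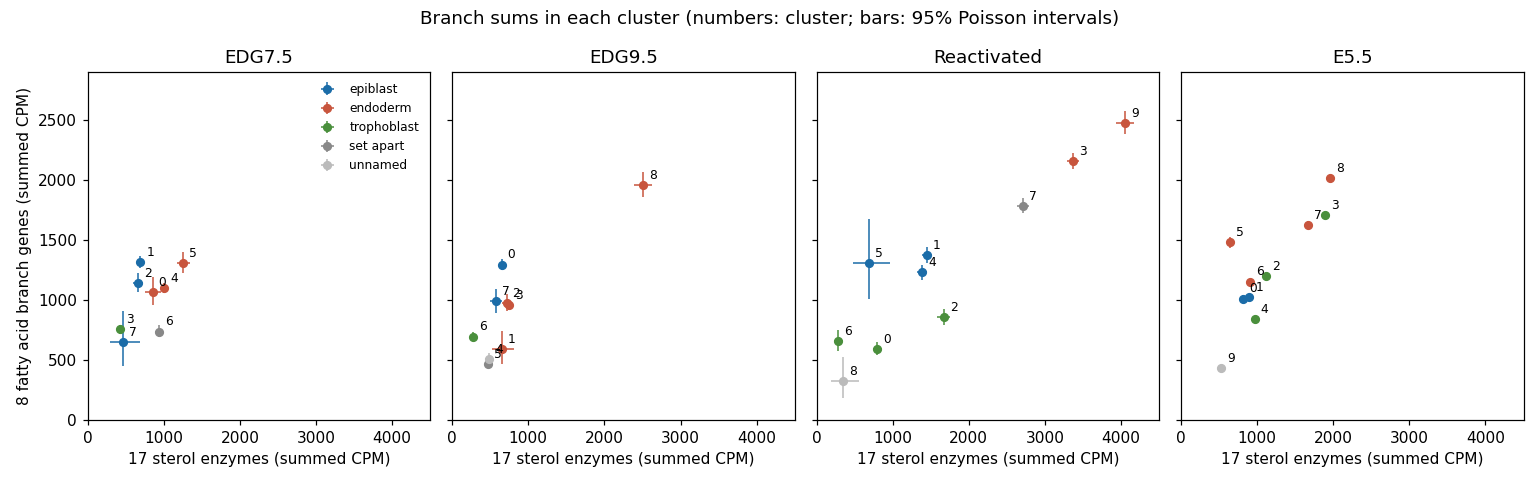
Sum of the 17 sterol enzymes (x axis, CPM) against the sum of the 8 fatty acid genes (y axis, CPM) in each cluster of each library, coloured by lineage, with 95% Poisson intervals and cluster numbers. EDG9.5 cluster 8 lies at 2502 and 1960.5 CPM, far from the other EDG9.5 clusters and nearer to the Reactivated endoderm clusters 3 and 9.

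Other genes of the same pathways were less uniform. Of 23 further sterol pathway genes, 1, 1 and 2 were 2-fold higher and 9, 4 and 6 lower in Reactivated over EDG9.5 in epiblast, endoderm and trophoblast, of 21, 21 and 20 measured, with medians of -0.91, -0.13 and -0.30. Of all measured genes 7.3%, 6.12% and 12.6% were higher and 16.5%, 11.6% and 15% lower. Acat2, which joins acetyl-CoA units at the entry of the mevalonate route, was the highest in each: 53.3 and 172 CPM in epiblast (3.22 times, 2.65 to 3.94), 103 and 533 CPM in endoderm (5.17 times, 4.62 to 5.79) and 16.3 and 178 CPM in trophoblast (10.9 times, 7.68 to 16.1). Of 26 further fatty acid and lipid genes, 1, 6 and 3 were higher and 3, 4 and 6 lower, of 21, 26 and 21 measured, beside the same shares of all genes. With 10 CPM added the highest were Mid1ip1, an activator of acetyl-CoA carboxylase, in epiblast (5.56 times, 4.10 to 7.67), Slc25a1, the mitochondrial citrate carrier, in endoderm (3.15 times, 2.83 to 3.5), and Elovl5, an elongase of polyunsaturated fatty acids, in trophoblast (14.3 times, 7.74 to 29.2). In EDG9.5 over EDG7.5 none of either list passed 2-fold with 10 CPM added; the highest were Abca1 (1.33 times) and Fads1 (1.26 times) in epiblast, Abcg1 (2.05 times) and Mid1ip1 (1.63 times) in endoderm, and Osbpl2 (1.38 times) and Acsl3 (1.57 times) in trophoblast. In E5.5 over Reactivated they were Soat1 (2.28 times) and Fabp5 (7.87 times, 5.5 to 11.7) in epiblast, Mylip (2.72 times) and Dgat2 (2.44 times) in endoderm, and Lbr (2.59 times) and Fads1 (4.24 times, 2.73 to 6.96) in trophoblast.

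Across the 12 sums of 3 lineages in 4 libraries, members were set beside the mean log2 level of the other sterol enzymes. Lss (Pearson r 0.96), Cyp51 (0.96), Sc4mol (0.94), Fdft1 (0.93) and Mvd (0.91) lay closest to it, and Dhcr7 (0.63), Ebp (0.52) and Idi1 (0.42) farthest of the enzymes. Acly (0.85), Acaca (0.84) and Fasn (0.83) were the closest of the fatty acid genes, while Srebf2 (0.37), Insig1 (-0.01) and Srebf1 (-0.18) were not close. The sums share libraries and depth, so these values are descriptions. Among 6999 genes outside the lists with a mean of at least 20 CPM, the 10 most like the mean of the sterol enzymes were Manf, Fkbp11, Tmem126a, Rpn1, 0610007P14Rik, Dnajb11, Sec61a1, Mrfap1, Hars and Kdelr2 (r from 0.95 to 0.92). Manf was 275, 271, 1693 and 533 CPM in the endoderm of the 4 libraries, and in epiblast 200.2, 212, 516 and 274 CPM. In trophoblast it was 58.2, 45.9, 338 and 248 CPM.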

How the data were processed

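Single-cell RNA was measured in 4 libraries. The deposited counts are whole numbers of UMIs per gene and cell made by the authors, with STAR 2.7.1a, featureCounts 1.6.4 of Subread, UMI-tools 1.0.1 and build mm10, per the submitters' processing notes. No source used here gives the annotation, strand setting or barcode filter, so reads of overlapping or near-identical genes are uncertain. The files hold 9620232, 10994918, 9270833 and 87507141 UMIs over 1726, 2566, 677 and 9560 barcodes (EDG7.5, EDG9.5, Reactivated, E5.5).

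Cells with at least 1000 UMIs, 500 genes and under 25% mitochondrially encoded UMIs were kept (1670, 2458, 673 and 9541), and Scrublet doublets were removed (12, 7, 2 and 278). Each library was clustered with scanpy 1.11.5 (2000 variable genes, 30 components, 15 neighbours, Leiden resolution 1), without the members and other pathway genes. A cluster was named when its best marker list led by 0.5 with at least 3 markers at 20 CPM. It was set apart, by a rule added after the data were seen, when its 10 top genes held more markers of another list. UMIs were summed per lineage. CPM have exact Poisson intervals and ratios exact conditional binomial intervals. Log2 ratios used 10 added CPM and genes with 10 or more UMIs over both sums. Sequences are from RefSeq. In total 12 alternatives were planned, among them TMM factors from edgeR 4.0.16, and 5 were added after seeing the data. The scripts' recovery of known ratios was tested on simulated data.

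The members and the gene lists were chosen with earlier results of these data known. All members are accounted for, and values are given for the highest and lowest log2 ratio of each branch and the highest of each other list in every comparison and lineage. Clusters described one by one were chosen after their values were seen. The levels of 1 further marker list, uterine epithelium, are not reported here.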

Additional observations from a re-analysis of the deposited data

Results flagged for a closer look

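2 members passed 2-fold in opposite directions in different lineages in Reactivated over EDG9.5, with 10 CPM added and no test of the difference. Other members, among them Ebp, Sc5d and Insig1, differed in direction without passing the bound on both sides. Scd1 had a log2 ratio of 1.84 in endoderm and -1.28 in trophoblast. Stard4 had log2 ratios of 1.43 in epiblast and 1.05 in endoderm, and of -1.63 in trophoblast.

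The clusters left out of the 3 lineage sums had trophoblast as their best marker list, or endoderm for Reactivated cluster 7. They also held UMIs of the sterol enzymes. Their sum was 935 CPM in the set-apart cluster 6 of EDG7.5 (led by H19, Msx1 and Igf2), 482 CPM in the unnamed cluster 4 of EDG9.5, 469 CPM in its set-apart cluster 5, 2709 CPM in the set-apart cluster 7 of Reactivated, 341 CPM in its unnamed cluster 8 of 8 cells, and 531 CPM in the unnamed cluster 9 of E5.5, which was led by Prl3d1.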

How the results depend on the processing

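Across the alternatives, 252 branch medians stayed within the spread of the members and 7 moved. A change of sign was counted only for medians whose spread did not hold 0, and there was 1. Medians whose spread held 0 could also change sign, as the fatty acid median of Reactivated over EDG9.5 in trophoblast did (-0.30 to 0.77). The sterol median of EDG9.5 over EDG7.5 in endoderm was -0.083 with the mean of per-cell CPM, -0.27 without EDG9.5 cluster 8 and 1.05 with cluster 8 alone; in epiblast it was -0.21 with cells thinned to 1000 UMIs and in trophoblast -0.61 with 1 CPM added. With cluster 8 alone the sterol median of Reactivated over EDG9.5 in endoderm was 0.35, and Cyp51 (-0.049) and Stard4 (-0.21) changed sign. With Reactivated cluster 6 alone the trophoblast median was -0.31 over EDG9.5 and 1.69 for E5.5 over Reactivated, and Mvk (-0.028), Lss (-0.16), Cyp51 (-0.897) and Sc4mol (-0.57) changed sign. Fatty acid genes highest in endoderm numbered 2 in EDG7.5 and 2 in EDG9.5 after thinning. The cause was not tested.

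In Reactivated over EDG9.5 the sterol genes 2-fold higher ranged from 2 (50 CPM added) to 12 in epiblast, from 3 (cluster 8 alone) to 16 in endoderm and from 1 (cluster 6 alone) to 13 in trophoblast; those lower in E5.5 over Reactivated numbered 1 to 5 in epiblast and 6 to 11 in endoderm. In EDG9.5 over EDG7.5 trophoblast 0 to 6 sterol genes were 2-fold lower (6 at Leiden resolution 2). Shares of all genes past 2-fold were counted for the main setting and for cluster 8 or cluster 6 alone, not for the other alternatives. Thinned, 44 of 56 calls with a value stayed past 2-fold, and 54 of 61 with every cluster under its best list. Thinning moved Mvk in endoderm from 1.99 to 1.22 and from -1.44 to -0.80, and Insig1 in trophoblast from -1.61 to -2.79. Without doublet removal the trophoblast of EDG7.5 and EDG9.5 could not be named, so those comparisons have no value. No paired analysis was possible because each stage is 1 library and no test was made. Genes under 10 UMIs in 2 sums, and clusters of few cells, are limited by depth.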
